A study of Mus musculus with 32 samples.

Results

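The cytosolic ribosomal protein genes were taken by symbol: every gene named Rpl or Rps with a number in the authors' comparison tables, the acidic proteins Rplp0, Rplp1 and Rplp2, and Rpsa. This rule found 90 of the 39017 genes in the count table, under 83 symbols. They are 76 core genes (45 of the large 60S subunit and 31 of the small 40S subunit), 4 coding paralogs (Rpl22l1, Rpl36al, Rpl7l1 and Rps27l) and 10 copies, mostly pseudogenes, that carry a parent's symbol. All 90 passed the filter on low counts. Rpl24, Fau and Gnb2l1 (Rack1) also encode ribosomal proteins but lie outside the rule, and Rpl39l, a testis-enriched relative of Rpl39, is described apart.

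Each value comes from read counts of RNA sequencing in mouse embryonic fibroblasts, connective tissue cells grown out of embryos. There were 4 lines: cells deleted for ATM with the wild-type line wtATM, and cells deleted for ATMIN with a separate wild-type line, wtATMIN. ATM is a protein kinase activated by DNA breaks, and ATMIN is its interacting cofactor. Cells of each line were given 1 µM aphidicolin (APH), which blocks the polymerases that copy DNA, or its solvent DMSO. They were collected at 24 h or 4 h, giving 16 groups of 2 samples and 32 samples in all. As each knock-out is 1 line, an effect of the deletion and a trait of that line cannot be told apart. Nothing in the labels states that paired samples came from separate cultures, so p-values measure only the spread between these samples, which may be technical.

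A ribosome holds a single copy of most of these proteins, made in step with ribosomal RNA and assembled in the nucleolus. The mRNAs are among the most abundant of a growing cell. Many are known to begin with a C followed by an unbroken run of pyrimidines, the 5′ terminal oligopyrimidine (TOP) motif, through which mTOR and LARP1 control their translation and stability. Free Rpl5 and Rpl11 bind MDM2 when ribosome assembly is disturbed.

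Start sites are shown because the TOP motif is the sequence feature the family is best known for. RefSeq start sites on GRCm38.p6 were found for 56 of the 76 core genes. The windows below hold 30 bases before the annotated start and 30 from it, 5′ to 3′ on the gene's strand, and capitals mark the unbroken run of C and T from the start base. Rpl14 (chr9:120571487-120571546, plus strand), Rpl38 (chr11:114668550-114668609, plus strand) and Rps6 (chr4:86857338-86857397, minus strand) were lower with APH at 24 h in all 4 lines. Rpl18 (chr7:45718041-45718100, plus strand) was too, and has no such run at its annotated start. Rps27 (chr3:90213619-90213678, minus strand) changed most with time in the other direction from most of the family.
Rpl14: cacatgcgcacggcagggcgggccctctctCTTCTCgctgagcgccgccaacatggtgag
Rpl38: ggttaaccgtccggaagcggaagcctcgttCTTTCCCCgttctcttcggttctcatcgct
Rps6: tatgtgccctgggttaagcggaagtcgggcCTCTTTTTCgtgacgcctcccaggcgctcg
Rpl18: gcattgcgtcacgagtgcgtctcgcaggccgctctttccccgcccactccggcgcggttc
Rps27: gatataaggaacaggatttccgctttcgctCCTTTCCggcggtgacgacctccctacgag
A C at the annotated start followed by 4 pyrimidines stood in 13 of the 56 core genes (23.2%), against 3.01% of 27025 genes. Of the 16 core genes lower with APH at 24 h in all 4 lines, 13 had a RefSeq start and 4 of these (30.8%) held it, against 9 of 43 other core genes (20.9%), so most of the 16 lack it and the windows shown are not typical of them. Whether these shares differ was not tested. A run of at least 8 pyrimidines within 20 bases of the start stood in 51.8% of the core genes, against 18.8% of all. In the 300 bases around the start, searched on both strands, the ETS-type motif CCGGAAG stood in 42.9% of core genes against 9.93% of all, and the TATA box TATAAA in 10.7% against 15.7%. A match is a description of the letters, and an annotated start that is off by a few bases hides the motif.

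The 76 core genes took 3.57% to 6.09% of all counts in a library, and total counts ran from 9321329 to 21020662. CPM stands for counts scaled to a library of fixed size, with TMM factors. Levels per length used the gene length in the authors' deposited tables. Among the core genes Rps12 (2757 CPM per kb over all 32 libraries), Rplp1 (2647) and Rpl41 (1797) stood highest. Rpl22 (132) and Rps15a (87.7) stood lowest. The length given for Rps15a is 5134 bases, though its coding sequence has 390. Its mean before division by length was 450 CPM, so its low place depends on the length used. Rps26 varied most between lines, with line means of 646 CPM in ATM knock-out, 1132 in wtATM, 351 in ATMIN knock-out and 505 in wtATMIN cells, a 3.23-fold range. Its ATM knock-out libraries ran from 497 to 830 CPM and its wtATM libraries from 858 to 1418 CPM, without overlap.

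The deleted genes were read first. Atmin had 3.77, 5.02 and 6.77 CPM (lowest, median and highest of 8 libraries) in ATMIN knock-out cells, against 20.4, 26.6 and 32.9 CPM in wtATMIN cells, without overlap. Atm had 17.8, 33.9 and 45.5 CPM in ATM knock-out cells, against 43.1, 52.2 and 65.1 CPM in wtATM cells, and the ranges overlap. By edgeR Atm was lower in 3 of 4 conditions and was not with APH at 24 h (log2 fold change −0.12 ± 0.15 SE, adjusted p = 0.509). The labels do not say which exons were removed, so reads over the whole gene do not check the deletion. Fibroblast markers summed to 7303 to 32373 CPM per library, led by Col1a1, and blood markers to 3.08 to 8.47 CPM. Thy1, a fibroblast surface protein, lay between 0 and 0.581 CPM in every line but ATM knock-out. Epithelial markers (0.379 to 243 CPM, led by Krt14) and neural markers (98.1 to 504 CPM, led by Nes) varied more.

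Libraries of the 2 times differed beyond these genes. Gm42418, a transcript annotated over a ribosomal DNA repeat, took 0.0254% to 0.593% of counts at 24 h and 1.35% to 8.31% at 4 h. Reads of 233 ribosomal protein pseudogenes made 13.05% to 13.42% of the core count at 24 h and 10.8% to 11.1% at 4 h. The ATM knock-out APH libraries at 4 h stood apart from each other (correlation of log2 CPM 0.981, against 0.991 to 0.994 in the other groups), and replicate 2 was the shallowest of all 32. Of 1298 olfactory and vomeronasal receptor genes, 372 had reads in replicate 2 and 143 in replicate 1, against a median of 35 over all libraries. Replicate 2 also had the highest share of mitochondrial genome reads at 4 h (3.51%), and replicate 1 held the 8.31% of Gm42418. Their part in the 4 h results was not tested.

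The share of counts in the core genes was lower with APH than with DMSO at 24 h in every line. It was 4.66% and 4.67% with APH against 5.29% and 5.17% with DMSO in ATM knock-out cells, and 5.17% and 5.22% against 5.53% and 5.50% in wtATM cells. It was 4.04% and 3.85% with APH against 4.58% and 4.63% with DMSO in ATMIN knock-out cells, and 3.57% and 3.59% against 4.39% and 4.18% in wtATMIN cells. Every APH library lay below both DMSO libraries of its line. With 4 h included, this held in 7 of 8 pairs of line and time, the exception being wtATM at 4 h. A lower share in bulk RNA cannot tell less of a transcript in every cell from fewer cells that hold it.

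**Figure D1:**
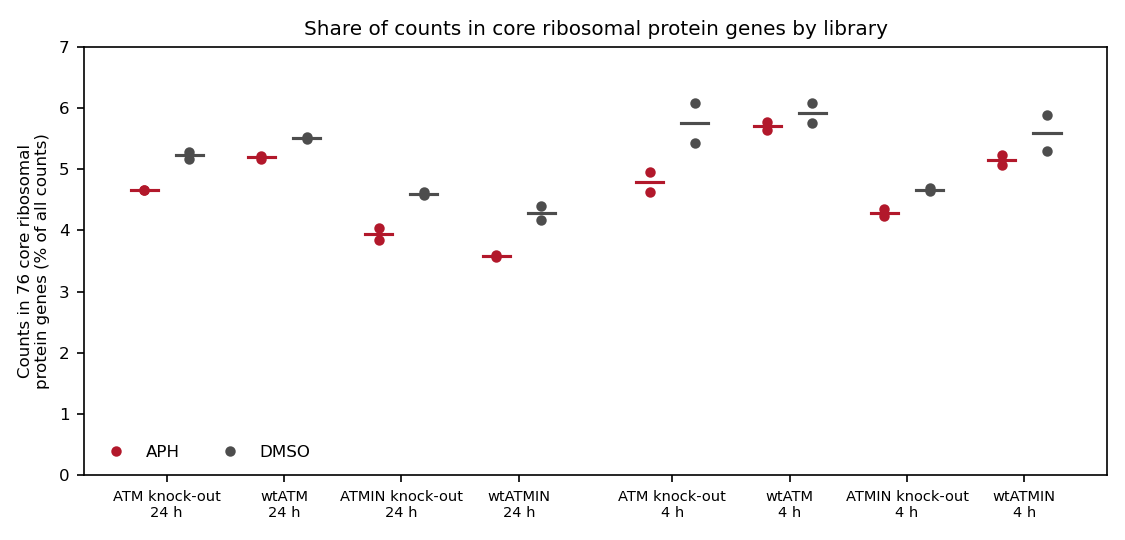
Share of counts in the 76 core genes (% of all counts, y axis) in each library (points) by line and time, APH beside DMSO, with group means as horizontal lines. At 24 h the APH libraries sit between 3.57% and 5.22% and each lies below the DMSO libraries of its own line.

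At an adjusted p under 0.05 (edgeR quasi-likelihood test over 18484 genes, Benjamini-Hochberg), APH at 24 h lowered 39 of 76 core genes in ATM knock-out, 20 in wtATM, 67 in ATMIN knock-out and 65 in wtATMIN cells. It raised none of them. Of all genes, 12.2%, 14.3%, 15.8% and 15.3% were called lower and 15.7%, 14.4%, 14.3% and 13.6% higher in these lines, in the same order. The median log2 fold change of the core genes was −0.20 in ATM knock-out, −0.15 in wtATM, −0.30 in ATMIN knock-out and −0.34 in wtATMIN cells. Both subunits took part: 23 of 45 large-subunit and 16 of 31 small-subunit genes were lower in ATM knock-out, 13 and 7 in wtATM, 39 and 28 in ATMIN knock-out, and 37 and 28 in wtATMIN cells. Between lines the responses were not shown to differ: for the knock-out response minus the wild-type response at 24 h edgeR called 0 core genes for either knock-out, where 3.92% (ATM) and 2.43% (ATMIN) of all genes were called. At an unadjusted p under 0.05 there were 0 and 1, and DESeq2 also called 0. At 4 h the ATMIN pair likewise had 0 called (0.671% of all genes), with 0 at an unadjusted p under 0.05 and 0 by DESeq2.

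The counts in the ATM pair rest on few libraries. Leaving out any 1 of the 4 libraries compared left 17 to 21 genes lower in ATM knock-out and 2 to 12 in wtATM cells, and scaling by library size alone left 26 and 3. In ATMIN knock-out cells 40 remained called without APH replicate 2, and 43 with scaling by library size alone. No core gene was called higher at 24 h in any of these fits.

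**Figure D2:**
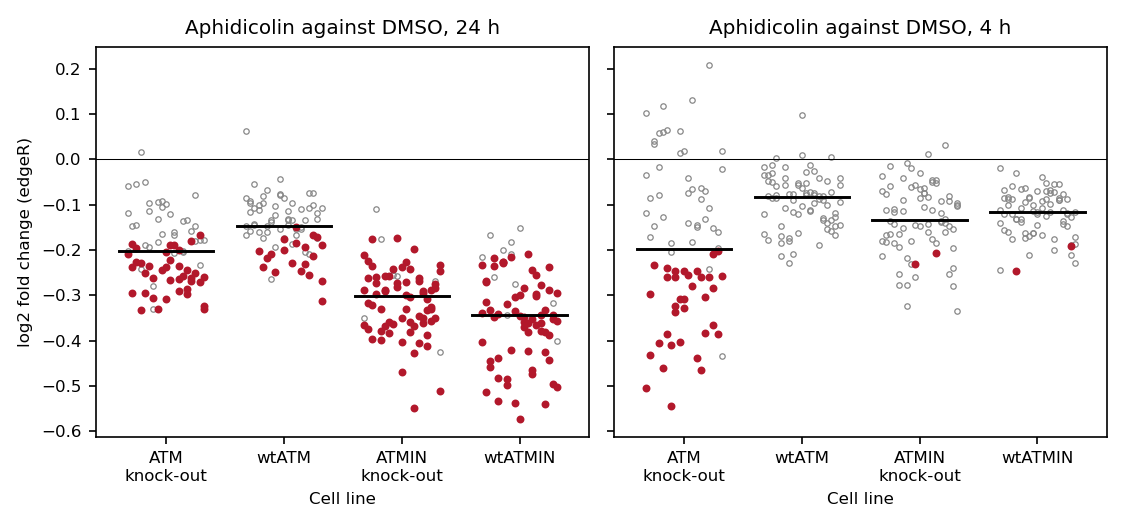
log2 fold change (y axis) of each of the 76 core genes with APH against DMSO, by line, at 24 h (left) and 4 h (right). Filled points were called at an adjusted p of 0.05 and black lines are medians, from −0.34 to −0.15 at 24 h.

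By the test, 16 core genes were lower at 24 h in all 4 lines, among them Rpl14, Rpl38, Rps25, Rpsa, Rpl13, Rpl7a, Rpl11, Rpl35a, Rpl17, Rps26, Rpl18, Rps6, Rpl27 and Rpl6. That is 21.1% of the core genes, against 579 of all genes (3.13%). Rpl14 (chr9:120571444-120574654, plus strand, mm10) is a large-subunit protein. It had 535 and 509 CPM with APH against 627 and 655 CPM with DMSO in ATM knock-out cells, and 569 and 530.2 against 663 and 634 CPM in wtATM cells. It had 492 and 441 CPM with APH against 604 and 609.9 CPM with DMSO in ATMIN knock-out cells, and 409 and 377 against 582 and 556 CPM in wtATMIN cells. No APH library reached a DMSO library of its line. The log2 fold changes were −0.30 ± 0.07, −0.24 ± 0.07, −0.38 ± 0.07 and −0.53 ± 0.07 SE in that order, with adjusted p from 0.00539 to 8.35e-08.

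Rpsa, a small-subunit protein also known as the laminin receptor, fell by 0.26, 0.18, 0.37 and 0.47 on the log2 scale in ATM knock-out, wtATM, ATMIN knock-out and wtATMIN cells. In wtATMIN cells it had 865 and 842 CPM with APH and 1222 and 1148 CPM with DMSO. Rps6, the small-subunit substrate of S6 kinase, fell by 0.33, 0.20, 0.30 and 0.24 in the same lines. In ATM knock-out cells it had 433 and 441 CPM with APH and 558 and 543 CPM with DMSO. Rpl11, the MDM2-binding large-subunit protein, fell by 0.24, 0.23, 0.29 and 0.38. Its partner Rpl5 passed the test in ATMIN knock-out cells alone (−0.26 ± 0.08, adjusted p = 0.0129), with −0.19 in ATM knock-out, −0.15 in wtATM and −0.20 in wtATMIN cells. Rpl3, at the peptidyl transferase centre, fell by 0.19, 0.29 and 0.28 in wtATM, ATMIN knock-out and wtATMIN cells.

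The acidic stalk proteins, which recruit elongation factors, were called in the ATMIN pair. Rplp0 fell in ATMIN knock-out cells (−0.24, adjusted p = 0.00713), and Rplp1 fell by 0.33 and 0.44 and Rplp2 by 0.40 and 0.48 in ATMIN knock-out and wtATMIN cells. In ATM knock-out and wtATM cells the 3 stalk genes had log2 fold changes between −0.18 and −0.05, none called. Rps25, needed for some internal ribosome entry sites, had the largest fall in wtATMIN cells (−0.57 ± 0.06, adjusted p = 6.77e-09), with 306 and 305 CPM with APH against 448 and 462 CPM with DMSO. Rpl27a led in ATMIN knock-out cells (−0.55 ± 0.07, adjusted p = 1.05e-07), with 313 and 295 against 441 and 449 CPM. Rpl39, in the peptide exit tunnel, was called in wtATMIN cells (−0.35, adjusted p = 0.00153) and had 0.02 in ATM knock-out cells, the single core value above 0 there.

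At 4 h the fall was called mainly in ATM knock-out cells. Their core share was 4.63% and 4.96% with APH against 5.43% and 6.08% with DMSO, while wtATM cells had 5.77% and 5.64% against 5.75% and 6.09%. APH lowered 35 core genes in ATM knock-out, 0 in wtATM, 2 in ATMIN knock-out (Rps15, −0.23, and Rpl36a, −0.21) and 2 in wtATMIN cells (Rpl14, −0.25, among them), and raised none. Of all genes 15.4%, 2.76%, 10.9% and 7.75% were called lower and 14.0%, 2.82%, 9.48% and 7.25% higher. In wtATM cells 6 core genes were lower at an unadjusted p under 0.05, and DESeq2 called 0. The medians were −0.20, −0.08, −0.13 and −0.12 in the same order of lines, so most core genes lay below 0 everywhere: 63, 72, 74 and 76 of 76. In ATM knock-out cells Rpl18 led, with 700 and 585 CPM with APH against 895 and 980 CPM with DMSO (−0.54 ± 0.07, adjusted p = 6.89e-07), ahead of Rpl28 (−0.50). In wtATMIN cells the count was 26 without DMSO replicate 1, 0 without DMSO replicate 2 or APH replicate 1 and 1 without APH replicate 2. In ATMIN knock-out cells it was 34 in a fit to the compared groups alone, 0 without either replicate 2 and 1 without DMSO replicate 1.

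The ATM knock-out fall at 4 h went with base composition and with single libraries. Across the 76 core genes the Spearman correlation of the log2 fold change with coding GC content (44.9% to 61.6%) was −0.82, and across 14011 coding genes it was −0.50. For the other lines at 4 h it was −0.32 to −0.12 among core genes, and for ATM knock-out at 24 h −0.05. These correlations are across genes of the same libraries and carry no test, and the part of base composition in the fall was not tested. Without DMSO replicate 2, 7 core genes were lower and Rps15a was higher (0.33). Without APH replicate 1, 42 were lower and 5 higher (Rps15a, Rpl7, Rps27a, Rpl34 and Rpl23). Without APH replicate 2, 13 were lower and 0 higher, and a fit to the compared groups alone called 1. With copies added to their parents Rps15a was higher (0.21) beside 40 lower. The response differed from that of wtATM cells for 5 core genes (11.4% of all genes, 6.02% higher and 5.35% lower). Rpl18 (−0.47), Rps2 (−0.36), Rps14 (−0.35) and Rpl32 (−0.29) were lower and Rps15a (0.36) was higher. With scaling by library size alone 20 were lower and 0 higher. Without APH replicate 1 of ATM knock-out 26 were lower and 6 higher, and without its DMSO replicate 1, 15 were lower. Without its APH replicate 2, either DMSO replicate of wtATM or APH replicate 2 of wtATM the count was 1, without DMSO replicate 2 of ATM knock-out 2 and without APH replicate 1 of wtATM 3.

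**Figure D3:**
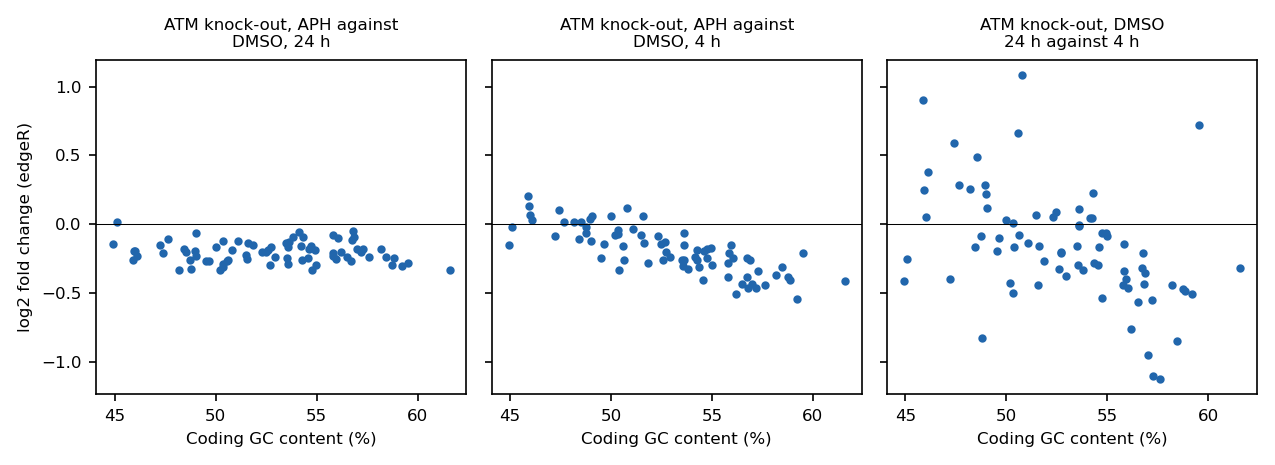
log2 fold change (y axis) against coding GC content (%, x axis) for the 76 core genes (points) in ATM knock-out cells: APH against DMSO at 24 h, the same at 4 h, and DMSO at 24 h against 4 h. Spearman correlations are −0.05, −0.82 and −0.54.

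The rest of the translation system was set beside the family. Of 60 ribosome biogenesis factors, which process ribosomal RNA and assemble subunits, APH at 24 h lowered 45 in ATM knock-out, 52 in wtATM, 44 in ATMIN knock-out and 27 in wtATMIN cells and raised 1, 1, 0 and 0. Their medians were −0.39, −0.55, −0.33 and −0.16, so the wtATM line had the deepest median for these factors and the shallowest for the ribosomal proteins. Heatr1, a factor of ribosomal RNA transcription and early processing, fell by 0.79 in ATM knock-out, 1.04 in wtATM and 0.64 in wtATMIN cells. Dkc1, the pseudouridine synthase of box H/ACA particles, fell by 0.92 in wtATM, 0.63 in ATMIN knock-out and 0.48 in wtATMIN cells.

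At 4 h most biogenesis factors were higher with APH in the ATMIN pair, where few ribosomal protein genes were called. APH raised 47 of 60 biogenesis factors in ATMIN knock-out cells and 31 in wtATMIN cells and lowered none, with medians of 0.33 and 0.22. The core ribosomal protein medians there were −0.13 and −0.12. Nolc1, a nucleolar scaffold, rose by 0.62 ± 0.06 (adjusted p = 1.13e-10) and 0.34 ± 0.06 (adjusted p = 2.32e-05) in these lines, and Myc, an activator of ribosome genes, by 0.52 and 0.25. In ATM knock-out cells 23 factors were lower and 5 higher, led by Bop1 (−0.66), and in wtATM cells 9 were lower and 0 higher. Whether the 4 h responses of these factors differed between the pairs was not tested.

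Of 22 translation factors and other mRNAs known to carry a TOP motif, APH at 24 h lowered 5 in ATM knock-out, 9 in wtATM, 15 in ATMIN knock-out and 16 in wtATMIN cells and raised none. Naca, a chaperone of nascent chains, fell by 0.30, 0.39 and 0.41 in ATM knock-out, wtATM and ATMIN knock-out cells. Larp1, which binds TOP mRNAs, fell by 0.57, 0.67, 0.35 and 0.27 in the 4 lines. Outside the rule, Fau and Gnb2l1 were each lower at 24 h in ATMIN knock-out (−0.33 and −0.37) and wtATMIN cells (−0.25 and −0.36). Of 77 mitochondrial ribosomal protein genes, 28, 31, 19 and 16 were lower and 0, 0, 1 and 2 higher at 24 h, with medians of −0.21, −0.19, −0.13 and −0.08. Of 8 small nucleolar RNA host genes 4, 5, 3 and 4 were lower.

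The ATMIN knock-out line differed from wtATMIN in opposite directions at the 2 times. At 24 h the core genes were mostly higher in the knock-out: 41 higher and 9 lower with APH, 37 higher and 12 lower with DMSO. At 4 h they were mostly lower: 3 higher and 37 lower with APH, 3 higher and 36 lower with DMSO. Of all genes, higher and lower calls made 23.8% and 26.8% (APH, 24 h), 23.4% and 26.2% (DMSO, 24 h), 19.8% and 22.3% (APH, 4 h) and 21.9% and 23.0% (DMSO, 4 h). The core medians were 0.21, 0.18, −0.17 and −0.15 in that order. Single wtATMIN libraries moved these counts. Without DMSO replicate 2 of wtATMIN at 24 h, 21 were higher and 10 lower with DMSO. Without its DMSO replicate 2 at 4 h, 8 were higher and 22 lower, with a median of −0.05, and without its DMSO replicate 1, 3 were higher and 43 lower, with a median of −0.26. Without APH replicate 2 of wtATMIN at 4 h, 24 were lower with APH. In 17 core genes the call itself was higher in one condition and lower in another. The share of all genes with such a switch was not computed, so this count has no background beside it.

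Fibroblast genes also differed between these lines, by amounts that changed with time. Col3a1, a fibrillar collagen, had 1582 to 2316 CPM at 24 h and 1371 to 1645 CPM at 4 h in ATMIN knock-out cells, against 216 to 532 and 47.4 to 84.6 CPM in wtATMIN cells (lowest and highest of 4 libraries at each time). Dcn, a matrix proteoglycan, had 16.4 to 19.9 and 17.9 to 20.2 CPM in ATMIN knock-out cells, against 15.1 to 17.6 and 1.64 to 2.00 CPM in wtATMIN cells. Col1a2, a chain of type I collagen, had 3210.1 to 5284 and 4549 to 5944 CPM in ATMIN knock-out cells, against 197 to 358 and 1301 to 2115 CPM in wtATMIN cells. The wtATMIN cultures at the 2 times thus differed widely in these genes. Of the 10 fibroblast markers, the knock-out minus wild-type difference was higher at 24 h than at 4 h for 2 and lower for 5 with either treatment, with log2 values of 2.35 for Col1a2 and −3.15 for Dcn with DMSO. The 10 summed to 15658 to 24741 CPM at 24 h and 26856 to 32373 CPM at 4 h in ATMIN knock-out cells, against 7303 to 10340.5 and 10187 to 12439 CPM in wtATMIN cells. Thy1 lay between 0 and 0.379 CPM in both lines. The part of these differences in the reversal was not tested.

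**Figure D4:**
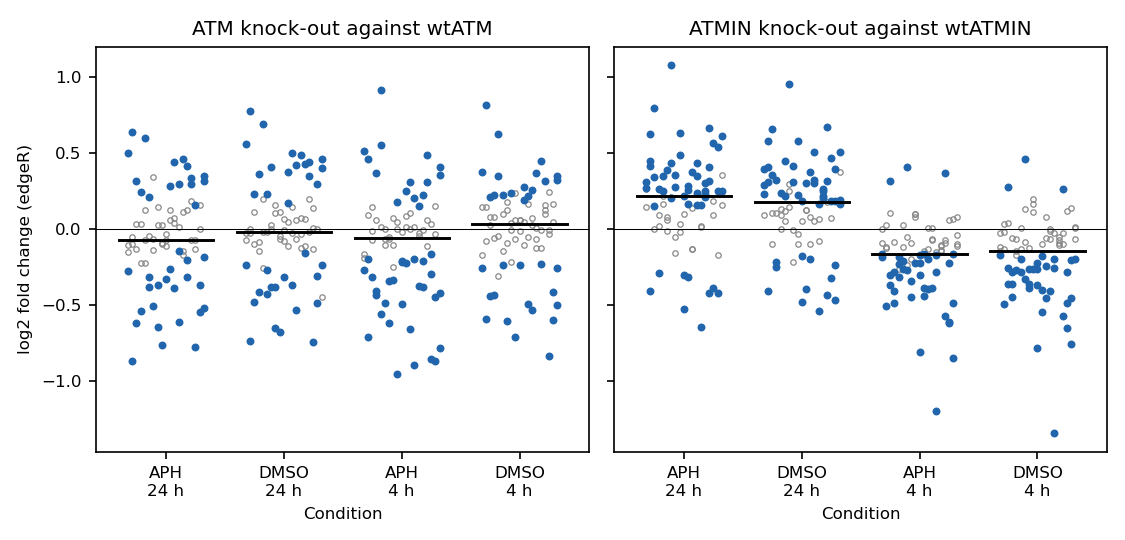
log2 fold change (y axis) of each of the 76 core genes, ATM knock-out against wtATM (left) and ATMIN knock-out against wtATMIN (right), by treatment and time. Filled points were called at an adjusted p of 0.05 and black lines are medians, which for the ATMIN pair are 0.21 and 0.18 at 24 h and −0.17 and −0.15 at 4 h.

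The change of this difference with time was tested directly, in a test added after the data were seen. The knock-out minus wild-type difference was higher at 24 h than at 4 h for 49 core genes with APH and 43 with DMSO, and lower for none, against 7.10% and 7.77% of all genes called higher and 8.94% and 9.76% lower. The medians were 0.39 and 0.34. In both treatments, which share no library, 36 core genes (47.4%) were called higher, against 3.56% of all genes higher and 5.25% lower in both. Without DMSO replicate 2 of wtATMIN at 4 h the DMSO count was 22. For the ATM pair 4 were higher and 2 lower with APH (12.6% and 9.58% of all genes) and 1 higher and 1 lower with DMSO (5.64% and 5.03%). Without APH replicate 1 of ATM knock-out at 4 h the APH split was 19 higher and 5 lower.

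Rpsa is an example of this change over time, and with DMSO it was called lower at 4 h alone, without a called reversal. With DMSO at 24 h it had 1224 and 1229 CPM in ATMIN knock-out cells against 1222 and 1148 CPM in wtATMIN cells, a difference not called (0.05 ± 0.06, adjusted p = 0.533). With DMSO at 4 h it had 1509 and 1449 CPM against 1859 and 2078 CPM (−0.41 ± 0.06, adjusted p = 7.02e-07). The change of the difference was 0.46 ± 0.09 (adjusted p = 0.000144), and 0.54 ± 0.09 with APH. With DMSO at 24 h against 4 h Rpsa fell by 0.27 in ATMIN knock-out cells and by 0.73 in wtATMIN cells. Rps14 had 747 and 734 CPM in ATMIN knock-out against 574 and 543 CPM in wtATMIN cells with DMSO at 24 h, and 982 and 920 against 961 and 1128 CPM at 4 h. Of the biogenesis factors, 33 of 60 moved the same way with DMSO but 5 of 60 with APH, where 2 moved the other way.

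In ATMIN knock-out cells 3 core genes were higher in all 4 conditions (Rps12, Rpl30 and Rpl22) and 9 were lower (Rpl41, Rpl13, Rpl38, Rps26, Rpl19, Rpl23a, Rpl31 and Rpl23 among them). These are 3.95% and 11.8% of the core genes, below the 11.4% and 13.2% of all genes called higher and lower in all 4. Rpl41 (chr10:128548114-128549305, minus strand, mm10), a very small large-subunit protein, had 463 and 417 CPM in ATMIN knock-out against 594 and 586 CPM in wtATMIN cells with APH at 24 h. With APH at 4 h it had 639.9 and 627 against 1136 and 1151 CPM. The log2 fold changes were −0.42 ± 0.13 and −0.85 ± 0.13, and −0.47 and −0.76 with DMSO. With the counts of its copies added the APH difference at 4 h was −0.84. Rps12 (chr10:23785183-23787275, minus strand, mm10), a small-subunit protein, was among those higher. It had 1358 and 1404 CPM in ATMIN knock-out against 642 and 665 CPM in wtATMIN cells with APH at 24 h (1.08 ± 0.09, adjusted p = 4.0e-11), and 1141 and 1142 against 824 and 899 CPM at 4 h (0.41 ± 0.09). No knock-out library overlapped the wild type in these 4 comparisons.

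**Figure D5:**
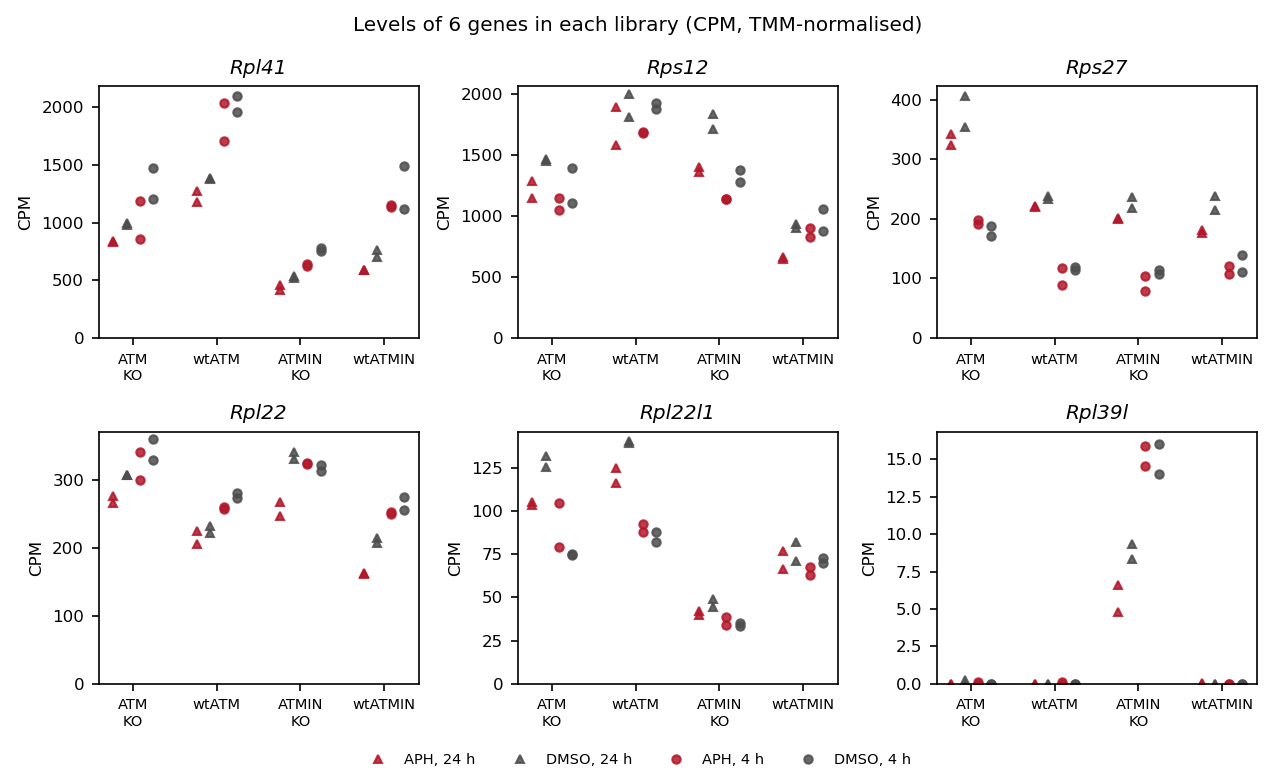
CPM (y axis, TMM-scaled) of 6 genes in every library by line, with triangles at 24 h and circles at 4 h and APH in red beside DMSO in grey. Rps12 in ATMIN knock-out cells lies above wtATMIN, Rpl41 and Rpl22l1 lie below it in the same condition, and Rpl39l is near 0 outside ATMIN knock-out cells.

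In the ATM knock-out line core genes differed from wtATM in both directions. With APH at 24 h 16 core genes were higher and 22 lower, with DMSO at 24 h 18 and 18, with APH at 4 h 15 and 29, and with DMSO at 4 h 17 and 16. Of all genes 31.5% and 29.9%, 29.5% and 29.8%, 30.3% and 28.6%, and 27.3% and 27.9% were called higher and lower. The share of core genes called higher was below these in each condition (21.1%, 23.7%, 19.7% and 22.4%), and the share called lower was above them with APH at 4 h alone (28.9%, 23.7%, 38.2% and 21.1%). These shares were not tested against each other. With scaling by library size alone the APH 24 h split was 12 higher and 32 lower. The medians lay between −0.07 and 0.03. With DMSO at 4 h the split turned with 1 library of ATM knock-out: without replicate 1 it was 25 higher and 12 lower (median 0.10), and without replicate 2 it was 9 higher and 21 lower (median −0.06). With APH at 4 h the median was −0.15 without APH replicate 1 of ATM knock-out and −0.12 without APH replicate 2 of wtATM. With APH at 24 h 5 small-subunit genes were higher and 14 lower, against 11 and 8 large-subunit genes.

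The lines of the ATM pair also differed in genes of cell identity, for some genes in every library. Thy1 had 182 to 276 CPM in ATM knock-out cells, against 0 to 0.581 CPM in wtATM cells. Krt14, a keratin of basal epithelium, had 0.0665 to 1.04 CPM in ATM knock-out and 79.9 to 226 CPM in wtATM cells, and its partner Krt5 had 0 to 0.0622 and 9.25 to 16.8 CPM. Map2, a neuronal microtubule protein, had 6.54 to 12.6 CPM in ATM knock-out and 0 to 0.0581 CPM in wtATM cells. Nes, which led the neural list, had 145 to 177 CPM in ATM knock-out and 252 to 269 CPM in wtATM cells at 4 h. At 24 h Nes had 89.0 to 107 and 80.7 to 90.9 CPM. The neural list summed to 171 to 182 CPM in ATM knock-out and 98.1 to 111 CPM in wtATM cells at 24 h. At 4 h it summed to 248 to 281 and 270 to 293 CPM. Of the 10 fibroblast markers 5 to 7 were higher and 3 or 4 lower in ATM knock-out cells, and they summed to 13579 to 18726 CPM there, against 20619.9 to 24931 CPM in wtATM cells. The epithelial list summed to 1.20 to 5.94 CPM in ATM knock-out and 98.5 to 243 CPM in wtATM cells. The part of these differences in the ribosomal protein results was not tested.

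In all 4 conditions 11 core genes were higher in ATM knock-out cells (Rps27, Rps14, Rpl7, Rpl17, Rpl11, Rps3, Rpl35a, Rpl22, Rpl23, Rpl27a and Rpl23a) and 14 were lower (Rps26, Rps15, Rpl37, Rps2, Rpl41, Rps12, Rps10, Rpl9, Rps6, Rps18, Rplp0, Rpl10 and Rps23 among them). These are 14.5% and 18.4% of the core genes. Over all genes 3325 (18%) were higher and 3280 (17.7%) lower in all 4, so the core shares lie near or below those of all genes. Rps14 had 1259 and 1199 CPM in ATM knock-out against 745 and 687 CPM in wtATM cells with DMSO at 24 h (0.78 ± 0.07, adjusted p = 1.31e-11). Rps26 had 609 and 581 against 1003 and 989 CPM (−0.74 ± 0.07, adjusted p = 6.76e-12). Rps15, a small-subunit protein, was lower in all 4 conditions (−0.77, −0.68, −0.96 and −0.71 with APH and DMSO at 24 h, then APH and DMSO at 4 h). Rpl37, of the large subunit, had 363 and 356 CPM in ATM knock-out against 616 and 698 CPM in wtATM cells with APH at 24 h (−0.87 ± 0.09, adjusted p = 3.59e-10). Rps12, higher in ATMIN knock-out cells, was lower here, with 1149 and 1284 against 1576 and 1891 CPM with APH at 24 h (−0.51 ± 0.09). Rps26, Rpl41 and Rpl22 are in the lists of both knock-outs with the same sign, while Rpl23 and Rpl23a are higher in ATM knock-out and lower in ATMIN knock-out cells.

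With DMSO alone, most of the core genes called were lower at 24 h than at 4 h. At 24 h against 4 h, 13 core genes were higher and 41 lower in ATM knock-out, 9 and 40 in wtATM, 13 and 32 in ATMIN knock-out and 5 and 62 in wtATMIN cells. Of all genes 24.6% and 24.1%, 23.1% and 23.3%, 23.4% and 23.8%, and 29.1% and 26.3% were called. The medians were −0.18, −0.19, −0.18 and −0.44. Without DMSO replicate 2 of ATM knock-out at 4 h, 14 were higher and 26 lower there, with a median of −0.10. In wtATMIN cells 1 was higher without DMSO replicate 1 at 4 h and 3 without either DMSO library at 24 h. With scaling by library size alone, which moved the median of all genes by 0.16 in wtATMIN and 0.12 in ATMIN knock-out cells, the splits were 15 and 24 in wtATM and 18 and 20 in ATMIN knock-out cells. The change also went with GC content (Spearman −0.54 to −0.37 over core genes, −0.52 to −0.27 over all coding genes), beside the difference in Gm42418 and pseudogene reads between the times. Their part in it was not tested. Gm42418 and pseudogene reads each set every 24 h library apart from every 4 h library. The comparison, here and by gene below, therefore cannot separate a change over time from differences in how the libraries were made.

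By gene, 5 core genes were higher at 24 h in all 4 lines (Rps27, Rps15a, Rps29, Rpl26 and Rps25) and 27 were lower, 6.58% and 35.5% of the core genes against 9.56% and 9.97% of all genes. Rps27, a zinc-finger protein of the small subunit, had 353 and 407 CPM at 24 h against 171 and 187 CPM at 4 h in ATM knock-out cells with DMSO, and rose by 0.85 to 1.08 on the log2 scale over the lines. Rps2, a small-subunit protein, fell by 1.12 in ATM knock-out, 1.12 in wtATM and 0.83 in ATMIN knock-out cells. The late response to APH was lower than the early response for some core genes and higher for none. The number lower was 7 in ATM knock-out, 1 in wtATM (Rps25), 12 in ATMIN knock-out and 20 in wtATMIN cells. These are 9.21%, 1.32%, 15.8% and 26.3% of the core genes. Of all genes 9.89%, 7.24%, 10.3% and 9.44% were called lower and 12.1%, 7.87%, 10.8% and 9.12% higher. The core share lower was thus above that of all genes in the ATMIN pair alone. In ATM knock-out cells the direction depended on the setting: with scaling by library size alone 9 were higher and 0 lower, and without APH replicate 1 at 4 h 15 were higher and 12 lower, and without DMSO replicate 1 at 4 h 4 were higher and 1 lower. Without APH replicate 2 at 4 h, or without DMSO replicate 2 at 24 h, the count there was 0, and without APH replicate 1 or 2 at 24 h it was 3 or 2. In wtATM cells 5 of the 8 libraries each took the call away. In ATMIN knock-out cells the count ran from 4 without DMSO replicate 2 at 24 h to 20 without APH replicate 1 at 24 h, and in wtATMIN cells leaving out DMSO replicate 1 at 4 h gave 8, and APH replicate 2 at 4 h gave 9.

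Among the paralogs, Rpl39l was read almost entirely in ATMIN knock-out cells. It had 82 to 294 reads in each of the 8 ATMIN knock-out libraries, 1496 in all, against 1 read over the 8 wtATMIN libraries, 5 over ATM knock-out and 2 over wtATM. In ATMIN knock-out cells it had 6.61 and 4.83 CPM with APH and 8.36 and 9.35 CPM with DMSO at 24 h, and 14.6 and 15.9 against 14.0 and 16.03 CPM at 4 h. Against 3 counts over the group, it was at least 116-fold higher with DMSO at 24 h, 169-fold with APH at 4 h and 163-fold with DMSO at 4 h than in wtATMIN cells. With APH at 24 h the ratio was 206 (95% counting interval 36.5 to 8160). Such intervals and floors cover counting error only. Its parent-like gene Rpl39 had 193 and 212 CPM in ATMIN knock-out against 235 and 236 CPM in wtATMIN cells with DMSO at 24 h (−0.22 ± 0.08, adjusted p = 0.0277).

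Rpl22l1, the paralog that can replace Rpl22 in the ribosome, was lower in ATMIN knock-out than in wtATMIN cells in all 4 conditions: −0.80 and −0.71 at 24 h and −0.84 and −1.05 at 4 h, with APH and with DMSO. It had 44.2 and 49.3 CPM against 70.9 and 82.1 CPM with DMSO at 24 h. Rpl22 was higher in the same comparisons, by 0.66, 0.67, 0.37 and 0.26, with 330 and 341 against 215 and 207 CPM with DMSO at 24 h. In mouse cells Rpl22 protein is known to repress Rpl22l1, and whether it did so here was not tested. With APH at 24 h the mean log2 fold change over the 4 lines was −0.26 for Rpl22 and −0.20 for Rpl22l1. These means carry no test, and Rpl22 was not called lower in every line. In ATM knock-out against wtATM cells the means over the 4 conditions were 0.35 for Rpl22 and −0.12 for Rpl22l1.

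Rpl36al fell with APH at 24 h in all 4 lines, by 0.39, 0.33, 0.46 and 0.51 in ATM knock-out, wtATM, ATMIN knock-out and wtATMIN cells, more than its parent Rpl36a (−0.26, −0.15, −0.27 and −0.37). The difference between the pair was not tested. Rps27l, a p53 target in human cells, was called with APH at 24 h only in ATMIN knock-out cells, where it was lower (−0.32 ± 0.09, adjusted p = 0.00836), with 0.17, 0.10 and −0.07 in ATM knock-out, wtATM and wtATMIN cells. Rpl7l1, a nucleolar relative of Rpl7, fell by 0.26 at 24 h in wtATM cells and rose by 0.36 at 4 h in ATMIN knock-out cells.

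Of the 10 copies, APH at 24 h lowered 4, 1, 8 and 7 in ATM knock-out, wtATM, ATMIN knock-out and wtATMIN cells. Of all genes 12.2%, 14.3%, 15.8% and 15.3% were called lower in these lines. Reads of a copy and its parent can be exchanged by the counting, so the counts of copies are uncertain. With the reads of 235 such copies added to their parents, an alternative chosen after seeing the data, the counts of core genes lowered by APH and those of the knock-out comparisons stayed within 1.5 times.

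In the authors' deposited table for ATMIN knock-out against wtATMIN, 50 core genes were higher and 12 lower with APH at 24 h, 44 and 14 with DMSO at 24 h, 5 and 43 with APH at 4 h and 4 and 34 with DMSO at 4 h. In the authors' deposited table for APH against DMSO in wtATMIN cells, 0 were higher and 72 lower at 24 h, and 0 and 7 at 4 h. The share of all genes called in these deposited tables was not computed, so the counts have no background beside them.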

How the data were processed

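RNA from 32 samples was sequenced from TruSeq v2 libraries, per the labels' protocols. Bowtie2 2.4.0, TopHat2 2.0.13, DESeq2 1.6.3 and mm10 are named in the submitters' processing notes; the counting tool and strand setting are not given in the sources used here. The values analysed are the raw read counts per gene that the authors deposited. The authors' own comparisons, as shrunken log2 fold changes with adjusted p-values, were read from the deposited tables, which also gave gene symbols and gene length; 120 per-sample columns of normalised values were not used.

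Counts of all 16 groups were fitted together in R 4.3.3 with edgeR 4.0.16 (filterByExpr, TMM, robust quasi-likelihood test), leaving 18484 genes, with Benjamini-Hochberg adjustment over these genes in each comparison. Total counts of 9321329 to 21020662 set the precision. Scripts were tested on simulated data. The members and lists were chosen with earlier results of these data known. Named genes were stalk, MDM2-binding and paralog genes, the 3 largest and 3 smallest changes called in each comparison, genes called alike across lines or conditions, and up to 4 of each other list by p. Rps14 in the ATMIN pair was chosen after its values were seen. Some genes that the rule names are not reported here. Alternatives were other scalings, no filter, DESeq2 1.42.0, a replicate block, the compared groups only and leaving out each library. The test of the knock-out difference over time and the addition of copies to their parents were added after seeing the data. Motifs came from RefSeq promoters of GRCm38.p6.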

Additional observations from a re-analysis of the deposited data

Results flagged for a closer look

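The values here were picked out because the difference between 2 groups' effects was itself called by edgeR (adjusted p under 0.05 over all genes); each is a log2 difference of differences.

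For the knock-out minus wild-type difference at 24 h less that at 4 h, the ATMIN pair with DMSO gave 0.61 for Rpl13, 0.57 for Rpl29, 0.56 for Rplp1, 0.46 for Rpsa, 0.45 for Rplp0, 0.44 for Rpl5, 0.41 for Rpl22, 0.39 for Rps6, 0.37 for Rpl3 and 0.29 for Rpl11. The paralogs Rps27l (0.42) and Rpl36al (0.38) moved the same way. With APH the ATMIN pair gave 0.80 for Rplp1, 0.67 for Rps12, 0.60 for Rps3a1, 0.54 for Rpsa, 0.51 for Rpl39, 0.49 for Rps27, 0.44 for Rpl11, 0.37 for Rpl5 and for Rpl36al, 0.36 for Rpl3, 0.35 for Rps6, 0.33 for Rplp0 and 0.30 for Rpl22 and for Rpl36a. No core gene was called lower in this test with either treatment, so the core genes picked out could only be positive.

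In the ATM pair the same difference had both signs. With DMSO it was −0.65 for Rpl29 and 0.34 for Rps27a. With APH it was 0.45 for Rpl32, 0.33 for Rpl12, 0.31 for Rps3, −0.43 for Rpl34 and −0.30 for Rpl9.

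The APH response at 4 h in ATM knock-out cells less that in wtATM cells was −0.47 for Rpl18, −0.36 for Rps2, −0.35 for Rps14, −0.28 for Rpl36al and 0.36 for Rps15a.

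The APH response at 24 h less that at 4 h was below 0 for each gene picked out. As no core gene was called higher, the core genes picked out could have no other sign. In ATM knock-out cells the direction depended on the setting, as given above. The difference there was −0.59 for Rpl22l1, −0.47 for Rps15a, −0.35 for Rpl17, −0.32 for Rps27a and −0.25 for Rps6. In wtATM cells it was −0.35 for Rpl36al and −0.27 for Rps25. In ATMIN knock-out cells it was −0.42 for Rpl22, −0.39 for Rpl36al, −0.37 for Rpl27a and −0.32 for Rpsa. In wtATMIN cells it was −0.46 for Rps25, −0.43 for Rpl37 and for Rps15a, −0.40 for Rpsa, −0.38 for Rpl36al, −0.32 for Rpl11 and −0.30 for Rpl22.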

How the results depend on the processing

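Of 3724 single-gene values under the alternatives, 3380 kept their direction and side of the threshold, 344 lost the call (248 of them without 1 library) and 0 reversed. With the compared groups fitted alone, the count of core genes called with APH at 4 h was 1 in ATM knock-out, 2 in wtATM, 34 in ATMIN knock-out and 1 in wtATMIN cells, and at 24 h it was 65 in ATM knock-out cells. In that fit ATM knock-out against wtATM with APH at 4 h gave 25, its response difference at 4 h gave 0, and that of ATMIN knock-out at 24 h gave 2. The late minus early count was then 0 in ATM knock-out, 2 in wtATM and 45 in ATMIN knock-out cells, and the ATM knock-out difference over time with APH was 1. With scaling by library size alone APH counts were 1 (ATMIN knock-out, 4 h), 3 (wtATM, 24 h) and 43 (ATMIN knock-out, 24 h), the ATM response difference at 4 h was 20, and late minus early counts were 0 in wtATM, 3 in ATMIN knock-out and 8 in wtATMIN cells. RLE scaling left 13 for wtATM at 24 h. With no filter APH at 4 h gave 18 in ATMIN knock-out and 7 in wtATMIN cells, the ATM response difference at 4 h 20, late minus early 12 in ATM knock-out, 0 in wtATM and 33 in wtATMIN cells, and the ATM difference over time with APH 13. DESeq2 gave 7 for wtATMIN at 4 h, 12 for the ATM response difference at 4 h, and late minus early counts of 11 in ATM knock-out and 20 in ATMIN knock-out cells. With copies added to their parents the ATM response difference at 4 h was 9 and the ATM knock-out late minus early count 11. The cause was not tested.

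Leaving out 1 library at a time, where a lone sample is assumed to vary like the other groups, gave 8 to 47 core genes for APH at 4 h in ATM knock-out, 0 to 2 in ATMIN knock-out and 0 to 26 in wtATMIN cells. At 24 h it gave 17 to 21 in ATM knock-out, 2 to 12 in wtATM and 40 to 61 in ATMIN knock-out cells. ATMIN knock-out against wtATMIN with DMSO at 24 h gave 31 to 46. The ATM response difference at 4 h gave 1 to 32. Late minus early gave 0 to 27 in ATM knock-out, 0 to 1 in wtATM, 4 to 20 in ATMIN knock-out and 8 to 30 in wtATMIN cells. The knock-out difference over time gave 4 to 24 (APH) and 0 to 2 (DMSO) in the ATM pair and 22 to 50 (DMSO) in the ATMIN pair. Without Gm42418 in the total, the core share with APH at 4 h was 5.07% in ATM knock-out, 5.84% in wtATM, 4.41% in ATMIN knock-out and 5.28% in wtATMIN cells, and 4.73% with DMSO in ATMIN knock-out cells.

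Correlations of the replicate deviations had a median of 0.0064 over 120 pairs of groups, from −0.208 to 0.167. Most of these pairs join different lines or times, so the median cannot decide whether APH and DMSO samples were paired by replicate number. No pair of groups lay above 0.167, those of APH with DMSO in the same line and time included. With the replicate block the APH 24 h counts were 38 in ATM knock-out, 19 in wtATM, 67 in ATMIN knock-out and 65 in wtATMIN cells. It also called Rps15a higher with APH at 4 h in ATM knock-out cells (0.21).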
